A study of Rattus norvegicus with 12 samples.

Results

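The nuclear genes for subunits of the mitochondrial respiratory chain and the ATP synthase were examined in the skull roof bone (calvaria) of rats 72 h after surgery. Members were chosen by gene name on the array (Nduf, Sdh, Uqcr, Cyc1, Cox4 to Cox8 and Atp5 names). This gave 83 of the 34912 gene names on the array. By name they were placed as 35 in complex I, 4 in complex II, 9 in complex III, 19 in complex IV and 16 in complex V. The complex was set by the name alone, Ndufa4 for instance as complex I, so a complex may hold genes that are not its subunits. Among the names, Atp5s is now Dmac2l in RefSeq and is not a subunit, and Cox6c-ps1 is a pseudogene of Cox6c.

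Expression was measured on 12 Agilent arrays of 1 colour, 4 for each of 3 groups of rats 10 weeks old. In the bur group a rectangular defect of 8 by 3 mm was drilled in the calvaria with a rotating bur. In the laser group a defect of the same size was ablated by Er:YAG laser light, infrared pulses that water absorbs strongly, at 20 Hz and an output of 127 mJ per pulse. The labels call the control bone non-treated, while the treatment protocol says that in controls the periosteum was taken off and the bone left intact. The strain and sex are not given in the sources used here. The labels do not say whether the arrays of a group came from separate rats, so the p-values describe how much these samples vary and no more, and that variation may be technical. The bone markers Col1a1 and Bglap were well above background on 4 of 4 arrays in each group. The 4 control arrays lay on 1 slide and the 8 treated arrays on another. Slide and surgery therefore cannot be told apart in the comparisons with control. Laser against bur lies within 1 slide, but the bur arrays lay in row 1 of it and the laser arrays in row 2. Row and treatment therefore cannot be told apart in that comparison. On the first principal component of all genes (49.5% of the variance), control replicate 3 stood at 6.67, apart from the other control arrays (55.5 to 122) and nearest to the treated arrays (-53.1 to -7.43). Without it 7 subunit genes passed in laser against control and 10 in bur against control, instead of 6 and 7, while the share of all genes that passed went from 22.3% and 26.2% to 35.2% and 37.0%.

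In the inner mitochondrial membrane, complex I oxidises NADH and complex II oxidises succinate, and both pass electrons to ubiquinone. Complex III passes them on to cytochrome c, and complex IV hands them to oxygen. Complexes I, III and IV pump protons, and complex V, the ATP synthase, uses the return flow to make ATP. All subunits of complex II are nuclear encoded, while the other complexes also contain subunits made from mitochondrial DNA. Several small subunits of complex IV exist as a widespread isoform and one restricted to certain tissues, such as heart and skeletal muscle, testis or lung.

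Of the 83 genes, 81 were measured and 80 were well above background on all 12 arrays. The exceptions were Cox7b2 and Cox8c, isoforms of complex IV best known from testis, which were well above background on no array and were not tested, and Ndufs4, a complex I subunit, which was detected on 2 of 4 control arrays. Levels are log2 signals, scaled so that the 75th percentile of each array is 0, and the brightest probe stood for each gene. Differences were tested with limma over 22718 genes with Benjamini-Hochberg adjustment, and a gene passed at an adjusted p under 0.05.

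Few subunit genes passed the test. In laser against control 3 rose (Ndufs8 and Ndufs4 of complex I, Atp5d of complex V) and 3 fell (Cox5a, Cox7c and Cox6c-ps1, all of complex IV). These are 6 of 81 members, or 7.41%, where 22.3% of all genes tested passed, 9.26% higher and 13.0% lower. Leaving out 1 array gave 2 to 7 members: 2 without control replicate 1 or laser replicate 2 or 3, where 5.48%, 5.80% and 6.72% of all genes passed, and 3 without control replicate 4 (8.69%). In bur against control 3 rose (Ndufs8, Ndufa2 and Atp5d) and 4 fell (Cox5a, Cox6b2, Cox7c and Cox6c-ps1). These are 7 of 81, or 8.64%, where 26.2% of all genes passed, 9.99% higher and 16.2% lower. Here leaving out 1 array gave 3 (without control replicate 1, 12.3% of all genes) to 10. No member passed in laser against bur with limma, where 0% of all genes passed; 0 members reached an unadjusted p under 0.05 and the lowest was 0.0855. The 2 comparisons with control share the same 4 control arrays.

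The median difference varied in sign between complexes, as the plot of differences by complex shows. The median log2 difference from control was 0.10 in complex I, 0.18 in complex II, 0.10 in complex III, -0.09 in complex IV and -0.01 in complex V after laser. After bur it was 0.20, 0.31, 0.17, -0.13 and 0.02 in the same order. Over all 81 members the median was 0.05 after laser and 0.11 after bur, beside 0.02 and -9.7e-05 over all genes tested. The laser median was -0.01 without control replicate 2, 0.01 without control replicate 1, -0.07 without laser replicate 4 and 0.10 without laser replicate 1. The bur median lay between 0.05 (without bur replicate 4) and 0.17 (without bur replicate 2) when 1 array was left out. In the main fit all members that passed as lower belonged to complex IV, and no member of complex IV passed as higher. These falls were 17.6% of the 17 measured genes of complex IV after laser and 23.5% after bur. The shares of all genes tested that passed as lower were 13.0% and 16.2%. In both comparisons the falls in complex IV include Cox6c-ps1, a pseudogene and not a subunit. They also include Cox7c, which on its other, dimmer probe was higher than control, by 0.49 after laser and 0.40 after bur. Cox6a2 of complex IV passed as higher after laser with the deposited values (limma, adjusted p = 0.0498) and with array weights (0.0367).

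**Figure D1:**
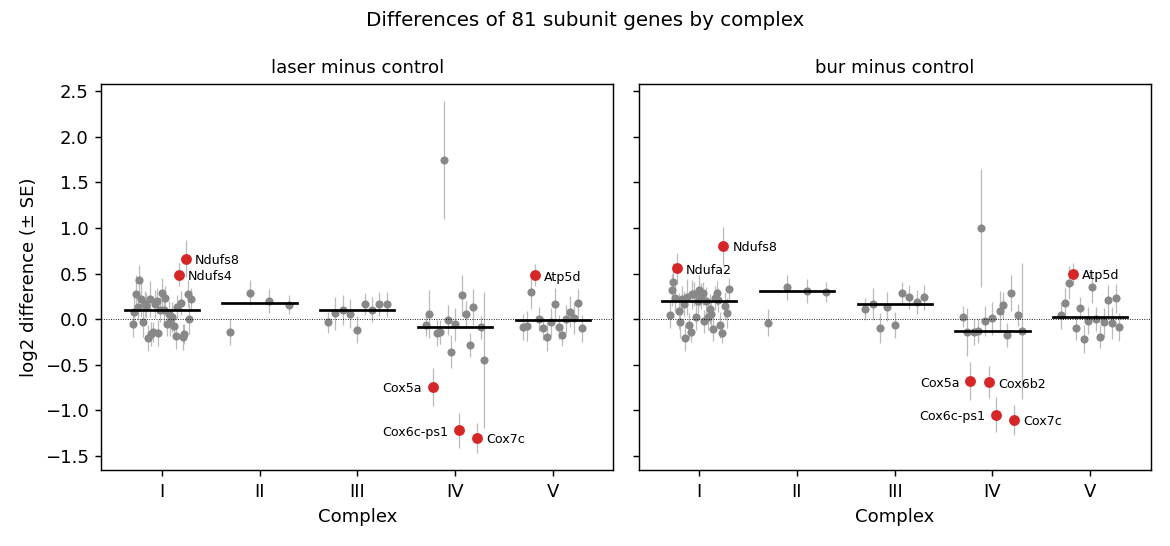
Log2 difference from control of each of the 81 measured genes (points, ± SE) by complex, for laser (left) and bur (right). Red points passed the limma test, grey points did not, and black bars are medians, which run from -0.09 in complex IV to 0.18 in complex II after laser. The grey point at 1.74 in complex IV after laser is Cox6a2.

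The intervals of the differences that missed the threshold mostly stayed within a 2-fold change. That bound is wider than most of the differences that passed, so it does not set the remaining genes apart from them. Of the 75 members not called in laser against control, the 95% interval stayed within a 2-fold change for 73, and of the 74 not called in bur against control for 72. In laser against bur this held for 79 of 81. In each comparison the exceptions were Cox6a2 and Cox8b, muscle isoforms of complex IV. At the median, the interval reached 0.32 to either side on the log2 scale.

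Complex I had the most genes and 2 that passed in each comparison with control. Ndufs8, an iron-sulfur subunit of the arm that carries electrons to ubiquinone, had log2 levels of -2.07, -1.99, -1.58 and -2.0 on the control arrays. They were -1.01, -1.43, -1.24 and -0.75 after bur and -1.70, -1.14, -1.29 and -0.87 after laser. All bur arrays lay above all control arrays, while laser replicate 1 lay below control replicate 3. The log2 difference was 0.80 ± 0.20 (SE) after bur (limma, adjusted p = 0.0180) and 0.66 ± 0.20 after laser (adjusted p = 0.0398). The call after bur was lost without control replicate 1 (adjusted p = 0.0540). The call after laser was lost without control replicate 1, 2 or 4, bur replicate 1 or 3, or laser replicate 2, 3 or 4 (limma, adjusted p 0.0512 to 0.107), with no filter on detection (0.0685) and when only the groups compared were fitted (0.0707). Without replicate 1 of all 3 groups neither call held (limma, adjusted p = 0.0747 after laser and 0.0918 after bur).

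Ndufa2, an accessory subunit, had log2 levels of 0.54, 0.56, 0.99 and 0.67 in control, 1.31, 0.95, 1.1 and 1.63 after bur, and 0.92, 1.07, 1.20 and 1.29 after laser. Control replicate 3 reached above the lowest array of each treated group. Its difference from control was 0.56 ± 0.17 (SE) after bur (limma, adjusted p = 0.0340) and 0.43 ± 0.17 after laser, which missed the threshold (adjusted p = 0.0877). The call after bur was lost without control replicate 1, 2 or 4 or bur replicate 1, 3 or 4 (limma, adjusted p 0.0543 to 0.0913), when only the groups compared were fitted (0.0672) and without replicate 1 of all 3 groups (0.179).

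Ndufs4, an accessory subunit needed for a stable complex I, lay near background. Its log2 levels were -6.47, -6.62, -6.61 and -6.54 in control, -6.31, -6.39, -6.35 and -6.06 after bur, and -5.91, -6.03, -6.01 and -6.35 after laser. No treated array overlapped the control arrays. On the log2 scale the difference from control was 0.49 ± 0.13 (SE) after laser (limma, adjusted p = 0.0253) and 0.29 ± 0.13 after bur (adjusted p = 0.118). With another background correction, normexp, the laser difference was -0.08 (limma, adjusted p = 0.751), and with the deposited log2 values it was 0.09 (0.427). The call was lost too with no filter on detection (limma, adjusted p = 0.0513), when only the groups compared were fitted (0.0623) and without replicate 1 of all 3 groups (0.107). The call was also lost without control replicate 1, 2 or 4 or laser replicate 2 or 3 (limma, adjusted p 0.0523 to 0.0691).

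The core subunits Ndufs1, Ndufs3, Ndufs7, Ndufv1 and Ndufv2, which hold the chain of iron-sulfur clusters and the NADH site, did not pass. Their log2 differences from control lay between -0.16 (Ndufs7) and 0.28 (Ndufv1) after laser and between -0.15 (Ndufs7) and 0.23 (Ndufs3) after bur. Ndufv1 after laser passed with the deposited values (limma, adjusted p = 0.0432) and with array weights (0.0477), and Ndufs3 after bur with array weights (0.0374). Over the whole complex 23 of 35 differences were above 0 after laser and 27 of 35 after bur. The arrays did not overlap in the upward direction for 1 gene after laser and 4 after bur, beside 8.87% and 9.60% of all genes tested.

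Complex II, the succinate dehydrogenase, had the highest median, but no member passed. Sdhd, a membrane anchor, had log2 levels of 2.40, 2.27, 2.52 and 2.39 in control, 2.68, 2.57, 2.76 and 2.75 after bur, and 2.60, 2.62, 2.41 and 2.58 after laser. The bur arrays lay above all control arrays and the laser arrays overlapped them. The log2 difference was 0.30 ± 0.11 (SE) after bur (limma, adjusted p = 0.0637) and 0.16 ± 0.11 after laser (adjusted p = 0.297). After bur, the iron-sulfur subunit Sdhb differed by 0.35 (adjusted p = 0.0782) and the anchor Sdhc by 0.31 (adjusted p = 0.0941). The flavoprotein Sdha, which holds the succinate site, differed by -0.04 after bur and -0.14 after laser.

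Whether genes of complex II passed after bur depended on the processing. Sdhb passed with normexp (limma, adjusted p = 0.0228), quantile normalization (0.0418), a 75th percentile over the probes detected on all arrays (0.0454) and the deposited log2 values (0.0435). Sdhd passed with normexp (0.0223) and the percentile over detected probes (0.0304). Sdhc passed with normexp (0.0191) and the deposited values (0.0198). With array weights all 3 passed after bur (limma, adjusted p = 0.0167 for Sdhb, 0.0227 for Sdhc and 0.0146 for Sdhd). Sdhb passed after laser as well with the deposited values (0.0497) and with array weights (0.0332). Leaving out control replicate 3 also brought Sdhb, Sdhc and Sdhd below the threshold (limma, lowest adjusted p 0.0400, 0.0380 and 0.0404).

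In complex III no gene passed in either comparison. Uqcrc2, a core protein of the complex, had log2 levels of 1.0, 0.87, 1.06 and 1.1 in control, 1.21, 1.15, 1.24 and 1.55 after bur, and 1.11, 1.20, 1.1 and 1.28 after laser. The treated arrays did not overlap the control arrays, though control replicate 4 and laser replicate 3 lay at nearly the same level. The group means differed by 0.28 ± 0.12 (SE) after bur (limma, adjusted p = 0.103) and 0.17 ± 0.12 after laser (adjusted p = 0.334). The bur difference passed with normexp (adjusted p = 0.0195), quantile normalization (0.0399), the percentile over detected probes (0.0480), the deposited values (0.0280) and array weights (0.0287). The catalytic subunits Cyc1 (cytochrome c1) and Uqcrfs1 (the Rieske protein) differed by 0.11 and 0.24 after bur and by -0.03 and 0.10 after laser; Uqcrfs1 after bur passed with array weights (limma, adjusted p = 0.0460).

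In the main fit complex IV held all the falls that passed. Cox7c, a small widespread subunit, had log2 levels of 0.12, 0.01, 0.32 and 0.23 in control, -0.94, -1.09, -1.11 and -0.59 after bur, and -1.17, -1.25, -1.33 and -0.79 after laser. Every treated array lay below every control array. The log2 difference was -1.30 ± 0.16 (SE) after laser (limma, adjusted p = 0.00211) and -1.11 ± 0.16 after bur (adjusted p = 0.00247). It passed in 12 of 12 fits that left out 1 array in both comparisons.

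The probes of Cox7c went in opposite directions. The brighter probe matches the gene's transcript and covers chr2:15254139-15255000 (build rn4), a span of 862 bases for 60 bases of probe, so its bases are split on the genome, as across an intron. The dimmer probe lies at chr2:15254519-15254578, 380 bases from the one end of that span and 422 from the other, inside the stretch that the brighter probe skips. On the dimmer probe the log2 levels were -3.55, -3.44, -3.0 and -3.26 in control, -2.93, -3.08, -2.89 and -2.74 after bur, and -2.87, -2.78, -2.95 and -2.68 after laser. It was higher than control by 0.49 ± 0.14 (SE) after laser and by 0.40 ± 0.14 after bur (limma over all 29775 kept probes, adjusted p = 0.0360 and 0.0610). With the mean of both probes the gene's difference was -0.41 (adjusted p = 0.0649) after laser and -0.35 (adjusted p = 0.0933) after bur.

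**Figure D2:**
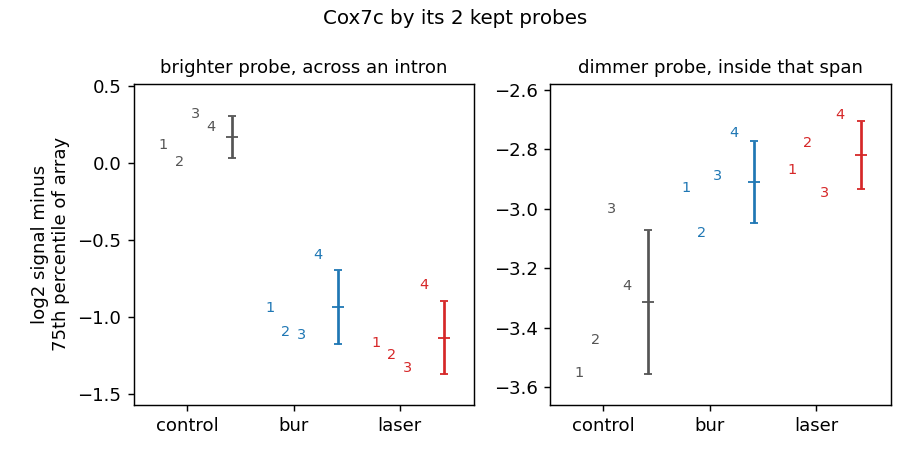
Log2 level of Cox7c (signal minus the array's 75th percentile) in each group by its brighter probe (left) and its dimmer probe (right). Digits are the replicate numbers, and bars are mean ± SD of 4 arrays. The brighter probe falls from 0.01 or more in control to -0.59 or less in the treated groups, whereas the control arrays are the lower ones on the dimmer probe, apart from control replicate 3.

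Cox6c-ps1, the pseudogene of another small subunit, also fell in both comparisons. Its log2 levels were 0.69, 0.30, 0.58 and 0.58 in control, -0.34, -0.83, -0.61 and -0.28 after bur, and -0.58, -0.98, -0.97 and -0.21 after laser, with no overlap between control and treated arrays. The difference was -1.22 ± 0.20 (SE) after laser (limma, adjusted p = 0.00494) and -1.05 ± 0.20 after bur (adjusted p = 0.00642), and it passed in 12 of 12 fits that left out 1 array in both comparisons. Without replicate 1 of all 3 groups the bur difference missed the threshold (limma, adjusted p = 0.0507). Its probe lies on chromosome 19, at chr19:54398139-54398198 (rn4), and was the only one kept of 3. The parent gene Cox6c on chromosome 7 differed by -0.05 after laser and 0.01 after bur. A probe for a pseudogene can bind transcripts of near-identical sequence, so its source is uncertain.

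Cox5a, a nuclear-encoded subunit, had log2 levels of 3.40, 3.04, 2.81 and 3.71 in control, 2.78, 2.64, 2.36 and 2.45 after bur, and 2.82, 2.47, 2.15 and 2.55 after laser. The bur arrays lay below all control arrays, and laser replicate 1 lay just above control replicate 3. The difference was -0.74 ± 0.21 (SE) after laser (limma, adjusted p = 0.0309) and -0.68 ± 0.21 after bur (adjusted p = 0.0347). On its other probe it was -0.52 and -0.44 (limma, adjusted p = 0.102 and 0.153).

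The calls of Cox5a were lost with normexp (limma, adjusted p = 0.0797 after laser and 0.0956 after bur) and when only the groups compared were fitted (0.0711 and 0.0564). They were also lost with the mean of the gene's probes (limma, adjusted p = 0.0536 and 0.0715) and without replicate 1 of all 3 groups (0.0808 and 0.114), and the laser call with no filter on detection (0.0538). The laser call was lost without control replicate 1 or 4 or laser replicate 2, 3 or 4 (limma, adjusted p 0.0594 to 0.0873). The bur call was lost without control replicate 1 or 4 or bur replicate 2, 3 or 4 (limma, adjusted p 0.0563 to 0.0912).

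Cox6b2, the isoform of subunit 6b best known from testis, had log2 levels of 0.71, 0.68, 0.51 and 0.79 in control, -0.19, -0.13, -0.05 and 0.30 after bur, and 0.31, -0.11, 0.34 and 0.73 after laser. Only the bur arrays were all below the control arrays. The difference was -0.69 ± 0.18 (SE) after bur (limma, adjusted p = 0.0188) and -0.36 ± 0.18 after laser (adjusted p = 0.161). The difference between laser and bur, 0.33 ± 0.18, did not pass (adjusted p = 0.9998). The bur call was lost without control replicate 1 or bur replicate 1 (limma, adjusted p = 0.0511 and 0.0521) and without replicate 1 of all 3 groups (0.130). The widespread isoform Cox6b1 differed by -0.02 after bur and -0.01 after laser. Its only probe was dim, with mean log2 levels of -3.02 in control, -3.04 after bur and -3.03 after laser. The median over all members was 2.28 to 2.66 on the control arrays. How well this probe follows the transcript was not tested.

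The remaining main subunits of complex IV stayed below the threshold. Cox4i1, the largest nuclear subunit, differed by -0.06 after laser (95% interval -0.32 to 0.20) and by 0.03 after bur (-0.23 to 0.29). Cox5b, which binds zinc, differed by -0.15 after laser (95% interval -0.46 to 0.16) and by -0.14 after bur (-0.45 to 0.18). In the downward direction the arrays did not overlap for 2 of 17 genes after laser and 4 of 17 after bur, beside 10.1% and 15.7% of all genes tested.

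**Figure D3:**
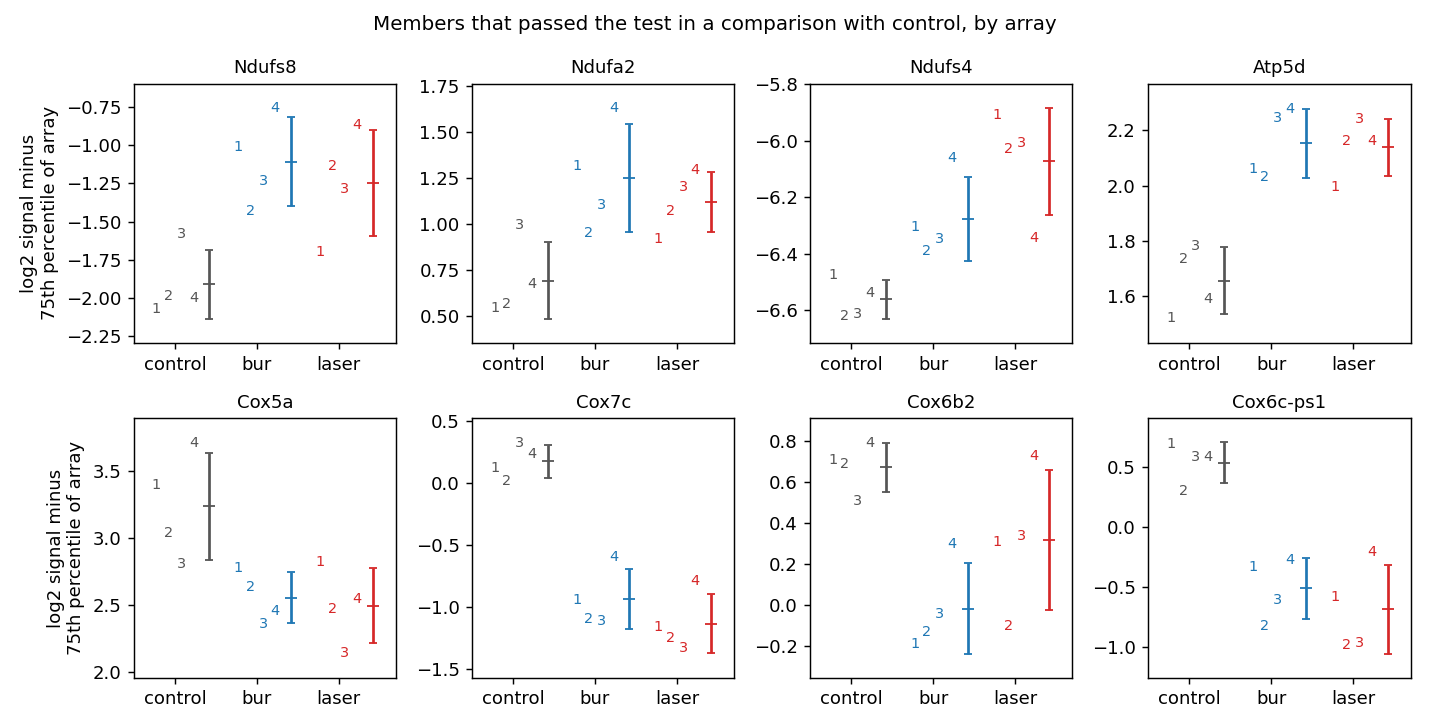
Log2 level (signal minus the array's 75th percentile) of the 8 genes that passed in at least 1 comparison with control. Digits are the replicate numbers, and bars are mean ± SD of 4 arrays. Cox7c and Cox6c-ps1 show no overlap between control and treated arrays, while laser replicate 1 of Ndufs8, at -1.70, sits among the control arrays.

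In complex V, Atp5d passed in both comparisons. It encodes the delta subunit in the central stalk of the catalytic head and is now named Atp5f1d. Its log2 levels were 1.52, 1.73, 1.78 and 1.59 in control, 2.06, 2.03, 2.24 and 2.28 after bur, and 2.00, 2.16, 2.24 and 2.16 after laser, with no overlap. The difference was 0.48 ± 0.12 (SE) after laser (limma, adjusted p = 0.0205) and 0.50 ± 0.12 after bur (adjusted p = 0.0139), a 1.40-fold and 1.41-fold rise. The bur call held in 12 of 12 fits that left out 1 array. The laser call was lost without control replicate 1 or laser replicate 2 or 3 (limma, adjusted p = 0.0625, 0.0562 and 0.0599) and when only the groups compared were fitted (0.0566). Without replicate 1 of all 3 groups neither call held (limma, adjusted p = 0.0731 after laser and 0.0804 after bur).

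The other stalk and head subunits did not pass. The catalytic subunit Atp5b differed from control by -0.07 after laser and 0.18 after bur, and Atp5a1 by -0.09 and 0.04. Atp5c1, the gamma subunit of the same stalk as Atp5d, differed by 0.29 after laser and 0.40 after bur (limma, adjusted p = 0.249 and 0.118), and passed in both with array weights (0.0488 and 0.0194). Atp5o, which links head and membrane part, differed by 0.17 and 0.23. The genes Atp5g1, Atp5g2 and Atp5g3 encode the same mature ring protein, and their differences were -0.20, -0.03 and 0.17 after laser and -0.22, -0.02 and 0.35 after bur, none past the threshold. Atp5g3 after bur passed with the deposited values (limma, adjusted p = 0.0491) and with array weights (0.0211).

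Promoters of the genes that passed were read from RefSeq windows of the build GRCr8, as the 250 bases before the gene's start, to show what they hold of motifs known from nuclear genes of the respiratory chain. The letters searched, on both strands, were CATGCGC (the core bound by NRF1), CCGGAAG (an ETS site, as bound by GABPA), AAGATGG (YY1) and AAGGTCA (bound by estrogen-related receptors, ERR). Capitals mark a match. Of the 8 genes that passed, 7 had a window, and 5 of the windows are given: Ndufs8 at chr1:210573699-210573948 (minus strand), Ndufa2 at chr18:28631885-28632134 (minus strand), Atp5d at chr7:10214351-10214600 (minus strand), Cox5a at chr8:66818034-66818283 (plus strand) and Cox7c at chr2:18579171-18579420 (minus strand).
Ndufs8: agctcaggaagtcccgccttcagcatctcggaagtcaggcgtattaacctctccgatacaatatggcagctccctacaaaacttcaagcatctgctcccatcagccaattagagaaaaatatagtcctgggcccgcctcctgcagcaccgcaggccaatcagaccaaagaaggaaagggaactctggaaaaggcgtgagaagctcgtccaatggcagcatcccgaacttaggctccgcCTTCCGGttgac
Ndufa2: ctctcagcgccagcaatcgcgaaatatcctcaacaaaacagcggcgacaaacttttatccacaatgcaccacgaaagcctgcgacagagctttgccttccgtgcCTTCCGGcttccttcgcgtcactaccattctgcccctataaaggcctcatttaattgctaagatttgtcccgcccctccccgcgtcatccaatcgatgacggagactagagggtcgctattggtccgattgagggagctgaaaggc
Atp5d: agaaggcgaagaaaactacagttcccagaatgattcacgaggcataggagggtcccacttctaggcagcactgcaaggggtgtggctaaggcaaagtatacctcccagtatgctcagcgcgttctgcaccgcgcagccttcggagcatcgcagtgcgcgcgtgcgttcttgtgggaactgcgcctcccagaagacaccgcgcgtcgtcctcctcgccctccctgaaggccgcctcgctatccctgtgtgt
Cox5a: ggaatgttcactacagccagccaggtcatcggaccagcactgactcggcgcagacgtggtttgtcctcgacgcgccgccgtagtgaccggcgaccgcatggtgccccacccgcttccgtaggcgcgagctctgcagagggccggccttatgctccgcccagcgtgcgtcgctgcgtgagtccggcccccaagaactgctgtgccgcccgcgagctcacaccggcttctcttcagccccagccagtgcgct
Cox7c: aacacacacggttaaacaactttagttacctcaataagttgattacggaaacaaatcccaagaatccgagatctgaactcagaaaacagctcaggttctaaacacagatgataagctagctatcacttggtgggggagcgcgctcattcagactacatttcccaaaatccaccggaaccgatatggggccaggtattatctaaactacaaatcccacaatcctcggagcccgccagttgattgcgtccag

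The ETS letters occurred on the reverse strand in Ndufs8, with the match starting 12 bases before the gene's start, and in Ndufa2, 146 bases before it. None of the 4 motifs was found in the other 5 of the 7 windows, those of Atp5d, Cox5a, Cox7c, Cox6b2 and Ndufs4, which says only that these letters are not in these 250 bases. Of the 83 members, 72 had a window. The ETS letters were in 18 of 72 (25.0%), beside 7.7% of 27457 promoters in the table, and the NRF1 core in 12 (16.7%), beside 3.5%. The ERR letters were in 7 (9.7%, beside 3.8%) and YY1 in 4 (5.6%, beside 4.6%). At least 1 of the 4 motifs was in 30 members (41.7%), beside 18.0% of all promoters.

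Of the muscle isoforms of complex IV, Cox6a2 varied widely between arrays of a group, and so did Cox8b in control and bur. Cox7a1 varied less, with an SD of 0.46 in control, 0.29 after bur and 0.15 after laser. Cox6a2, the heart and skeletal muscle form of subunit 6a, had log2 levels of -1.14, -2.34, -2.05 and -3.16 in control, -0.53, -2.88, -1.03 and -0.25 after bur, and -1.05, -1.57, 0.39 and 0.50 after laser. Laser replicates 3 and 4 and bur replicate 4 were the highest, and each treated group overlapped the control group. The difference was 1.74 ± 0.65 (SE) after laser (limma, adjusted p = 0.0719; 95% interval 0.32 to 3.16) and 1.0 ± 0.65 after bur (adjusted p = 0.264). The laser difference passed with the deposited values (limma, adjusted p = 0.0498), with array weights (0.0367) and without bur replicate 2 (0.0439).

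Cox8b, the muscle and brown fat form of subunit 8, had log2 levels of -2.99, -4.67, -4.47 and -5.60 in control, -2.08, -5.61, -5.38 and -5.19 after bur, and -4.27, -5.54, -4.86 and -4.85 after laser. Replicate 1 was the highest of its group in each case. Of 16 skeletal muscle markers, such as Ckm and Acta1, the summed scaled signal was 12.2, 1.30, 0.982 and 1.18 on the control arrays, 8.53, 0.953, 0.772 and 0.743 after bur, and 2.72, 0.788, 0.827 and 0.863 after laser. It too was highest on replicate 1 of each group. The part of muscle RNA in the isoform values was not tested.

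For Cox6a2 the order was different: laser replicates 3 and 4, with the highest Cox6a2, had muscle marker sums of 0.827 and 0.863. Cox7a1, the muscle form of subunit 7a, was highest on control replicate 1 (-3.57) and bur replicate 1 (-3.80), and laser replicate 2 was next (-3.81). The groups of Cox7a1 overlapped, with differences of 0.26 after laser and 0.09 after bur (limma, adjusted p = 0.412 and 0.798). Its other kept probes were dimmer and not detected on all arrays. The brighter of them differed by -0.51 after laser and -1.12 after bur (limma over all kept probes, adjusted p = 0.430 and 0.0890). The dimmer of them differed by 0.16 and 0.05 (adjusted p = 0.741 and 0.921). Without replicate 1 of all 3 groups, 2 members passed in laser against control (Cox7c and Cox6c-ps1) and 1 in bur against control (Cox7c), where 6.09% and 4.89% of all genes passed.

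**Figure D4:**
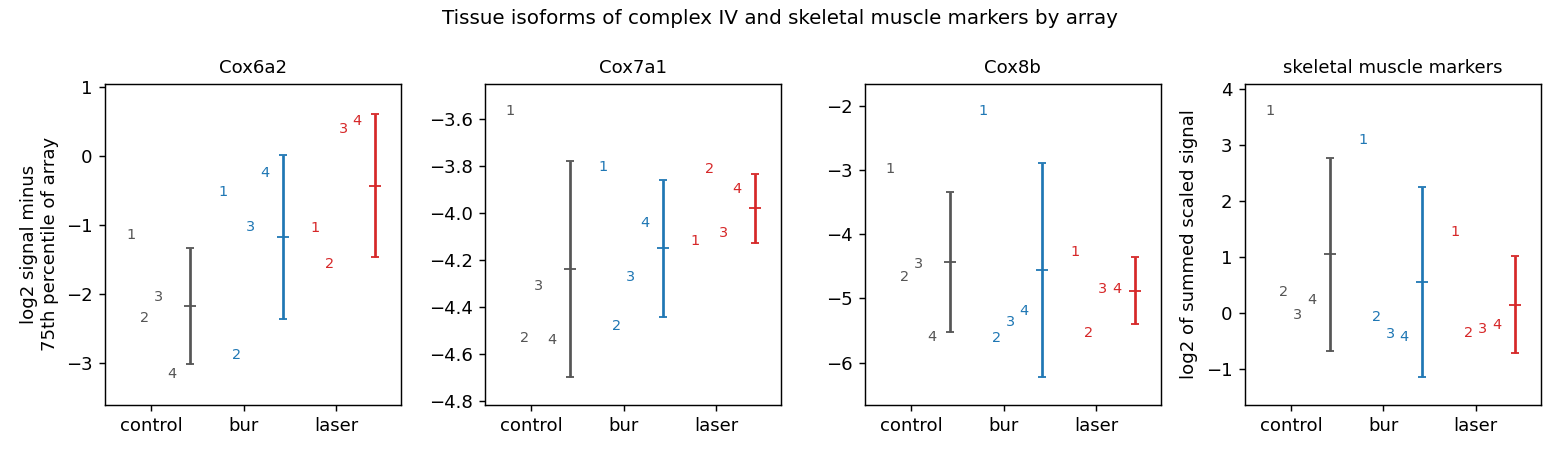
Log2 levels of 3 tissue isoforms of complex IV and log2 of the summed scaled signal of 16 skeletal muscle markers, by group. Digits are the replicate numbers, and bars are mean ± SD of 4 arrays. Replicate 1 is the highest in each group for Cox8b and for the muscle markers, whereas laser replicates 3 and 4 are the highest for Cox6a2.

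The difference within an array between a restricted and a widespread isoform does not depend on the scaling between arrays. For subunit 6b, Cox6b2 relative to Cox6b1 changed by -0.67 on the log2 scale after bur with no overlap between groups, while after laser the change was -0.34 with overlap. For subunit 6a, Cox6a2 relative to Cox6a1 changed by 1.89 after laser and 1.13 after bur, with overlap in both. Cox4i2, the lung form, relative to Cox4i1 changed by 0.12 after laser and -0.17 after bur, also with overlap. The pairs of subunits 7a and 8 overlapped as well.

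On several arrays the subunit genes of all complexes lay to the same side of their means. Each gene's level was set against its own mean over the 12 arrays, and the median over the 81 members was 0.28 on bur replicate 4 and 0.20 on laser replicate 4, the highest values. It was -0.20 on control replicate 2 and -0.17 on laser replicate 1, the lowest. By group the mean of these array medians was -0.05 ± 0.11 (SD, n = 4) in control, 0.06 ± 0.16 after bur and -0.01 ± 0.16 after laser. The groups therefore overlapped, and the range within the laser group was wider than the distance between group means. The median over all genes tested moved less, from -0.06 to 0.07.

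The complexes did not always lie together. On control replicate 1, complex IV stood at 0.22 while complexes I, II and III stood at -0.11, -0.19 and -0.14. On laser replicate 2, complex IV stood at -0.23 and complex II at 0.13. On control replicate 4 complex II was the lowest, at -0.18, and the other complexes lay between 0.05 and 0.13. The first principal component of the members held 40.4% of their variance.

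**Figure D5:**
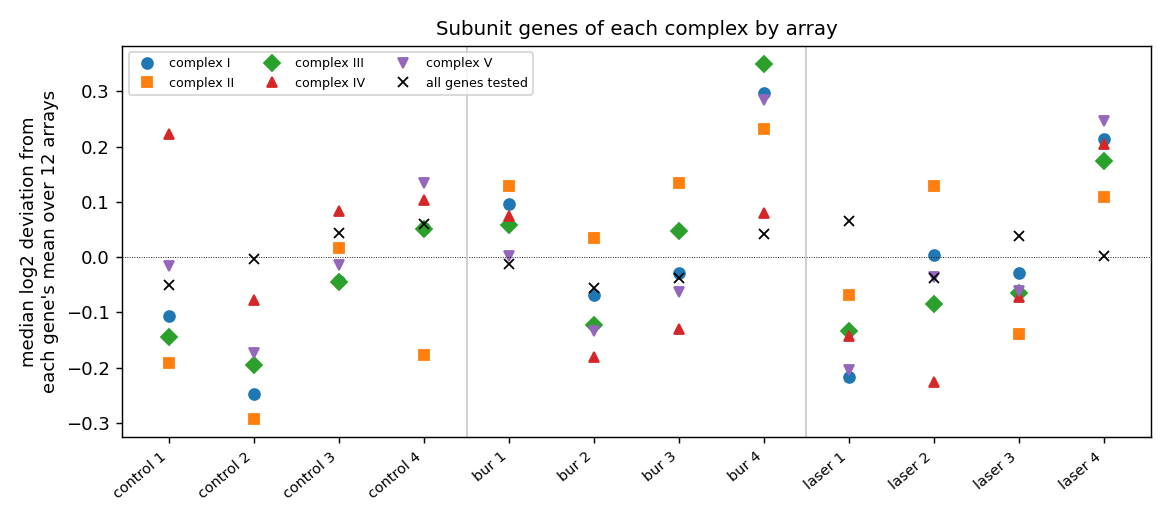
Median log2 deviation of the subunit genes of each complex, and of all genes tested, from each gene's mean over 12 arrays, for every array. On bur replicate 4 and laser replicate 4 the medians of all 5 complexes are above 0, and on control replicate 2 and laser replicate 1 all 5 are below 0.

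No subunit gene separated laser from bur by the test. The log2 difference was below 0 in 64 of 81 members, with a median of -0.08, beside 0.02 over all genes tested. Without laser replicate 1 the median was -0.01, and without laser replicate 4 it was -0.14. Atp5f1, a peripheral stalk subunit, was the only member whose laser arrays (2.19, 2.40, 2.31 and 2.41) all lay below the bur arrays (2.57, 2.50, 2.57 and 2.58), beside 0.581% of all genes tested. No member lay wholly above, beside 1.57%. Its difference of -0.23 ± 0.12 (SE) did not pass (limma, adjusted p = 0.9998).

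Of the 13 subunits encoded by mitochondrial DNA, 1 rose and 1 fell in each comparison with control. Over all genes tested, 22.3% passed after laser and 26.2% after bur. COX1, the catalytic subunit of complex IV, had log2 levels of 4.60, 5.63, 5.57 and 4.65 in control, 5.87, 5.72, 6.12 and 5.99 after bur, and 5.88, 5.77, 6.25 and 6.08 after laser. The treated arrays were all higher, by 0.89 ± 0.24 (SE) after laser (limma, adjusted p = 0.0286) and 0.81 ± 0.24 after bur (adjusted p = 0.0317). ND6, the complex I subunit transcribed from the opposite strand to the other mitochondrial subunits, had 1.1, 1.54, 1.56 and 1.5 in control, 0.31, 0.29, 0.49 and 0.56 after bur, and 0.89, 0.01, 0.57 and 0.81 after laser. All treated arrays were lower, by -0.86 ± 0.19 after laser (adjusted p = 0.0173) and -1.02 ± 0.19 after bur (adjusted p = 0.00670). The median difference of the 13 genes was 0.33 after laser and 0.27 after bur.

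Among 46 measured assembly factors, which build the complexes without staying in them, 5 rose and 3 fell after laser, and 8 rose and 4 fell after bur. For this list and those below, the shares of all genes tested were 9.26% higher and 13.0% lower after laser. After bur the shares were 9.99% higher and 16.2% lower. Higd1a, a hypoxia-induced protein that associates with complex IV, rose by 1.21 ± 0.33 (SE) after laser and 1.77 ± 0.33 after bur (limma, adjusted p = 0.0287 and 0.00656). Ndufaf6, an assembly factor of complex I, changed by -1.53 ± 0.43 and -1.57 ± 0.43 (adjusted p = 0.0312 and 0.0240). Timmdc1, an assembly factor of complex I, rose by 0.64 after laser, and Sdhaf4, an assembly factor of complex II, by 0.77 after bur.

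The electron carriers and partner enzymes gave 1 rise after laser and 2 after bur among 10 genes, and no fall. Etfdh, which feeds electrons from fatty acid oxidation into ubiquinone, rose by 0.43 after laser and 0.34 after bur. In the citric acid cycle and pyruvate dehydrogenase list of 17, Dlat rose and Cs, citrate synthase, fell after laser, with differences of 0.50 and -0.45. After bur 3 of the 17 rose, with 0.56 for Dld and 0.47 for Dlat, and none fell. Fatty acid oxidation had no rise, with 2 falls after laser (Cpt1b and Echs1) and 1 after bur (Cpt1b) among 13.

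Mitochondrial ribosomal protein genes gave 3 rises and 2 falls after laser and 9 rises and 2 falls after bur among 74. Over all genes tested, 22.3% passed after laser and 26.2% after bur. Mrpl42 had the largest change in both, with 0.90 and 1.02. Of 12 measured regulators of mitochondrial biogenesis, Twnk, the helicase that replicates mitochondrial DNA, rose by 0.44 after laser and 0.39 after bur. Tfb1m rose by 0.82 after bur only by the test, with 0.60 after laser (limma, adjusted p = 0.0829). Ppargc1a, the coactivator best known as a driver of this programme, was well above background on no array.

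Of 18 glycolysis genes measured, 5 rose and none fell after laser, and 6 rose and 1 fell after bur, with medians of 0.47 and 0.56. Over all genes tested, 22.3% passed after laser and 26.2% after bur. The glucose transporter Slc2a1 rose by 2.10 ± 0.60 (SE) after laser and 2.22 ± 0.60 after bur (limma, adjusted p = 0.0316 and 0.0219), and Tpi1 by 1.28 and 1.59. Gapdh rose by 0.99 in both. Among 10 carriers of the mitochondrial membranes 1 rose and 3 fell in each comparison. The adenine nucleotide carrier Slc25a5 rose by 0.55 after laser and 0.64 after bur. The uncoupling proteins Ucp3 (-1.63 and -1.52) and Ucp2 (-1.21 and -1.24) fell. No gene of any of these lists passed in laser against bur (limma; 0 genes of the lists in each direction).

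In each cell type marker list but that of skeletal muscle, some genes passed in laser or bur against control. Of the skeletal muscle markers 0 of 12 measured passed, with median log2 differences of -0.91 after laser and -0.31 after bur. Of all genes tested, 9.26% rose and 13.0% fell after laser, and 9.99% rose and 16.2% fell after bur. Erythroid markers fell for 13 of 14 genes in both comparisons, and their summed scaled signal was 464 to 904 in control, 224 to 392 after bur and 255 to 474 after laser. Neutrophil markers fell for 5 of 10 after laser and 4 of 10 after bur, with sums of 196 to 551 in control, 120 to 206 after bur and 50.1 to 263 after laser. Adipocyte markers fell for 6 of 8 and 5 of 8, with median log2 differences of -1.74 and -1.63. Their sums were 10.7 to 16.8 in control, 6.22 to 21.4 after bur and 5.90 to 18.4 after laser. In these sums Lpl weighed heavily, with a log2 level of 4.01 on bur replicate 2, where the sum was 21.4. Dividing cell markers fell for 3 and 4 of 9, and B cell markers for 2 and 3 of 9. Macrophage markers rose for 3 of 9 after laser and 5 of 9 after bur, with median log2 differences of 0.98 and 1.22. Their summed signal overlapped, with 139 to 183 in control, 143 to 168 after bur and 149 to 167 after laser. Lyz2, at log2 levels of 6.78 to 7.36, was by far the brightest of them, and this sum mostly follows it. Because the sums are linear, the brightest genes of each list weigh most in them. Osteoblast and osteocyte markers rose for 5 of 11 after laser and 0 of 11 after bur, with median log2 differences of 0.68 and 0.23. In laser against bur 0 of these 11 genes passed. Their sums overlapped, with 706 to 1008 in control, 609 to 916 after bur and 738 to 974 after laser. The part of these shifts in the subunit genes that rose or fell was not tested. In RNA from whole tissue, fewer cells of a type and less RNA per cell cannot be told apart.

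In the authors' deposited table, 70 of the members had a line. The table gave 6 higher and 5 lower in laser against control, 9 higher and 5 lower in bur against control and 0 in laser against bur, where 30.0%, 32.8% and 0% of its lines passed. The sign was the same as in the differences above for 63, 63 and 59 of the 70 members.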

How the data were processed

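RNA of 12 calvaria samples was hybridised to 12 arrays, 4 per group. Spot intensity on a linear scale was deposited by the authors as scanner output of Agilent Feature Extraction 11.0.1.1, per the file headers, with background subtracted, and probe positions are of build rn4. A log2 table and tables of comparisons (log2 changes, p-values) were deposited too; the steps between scanner output and these tables are not given in the sources used here. Processed intensity was scaled to each array's 75th percentile and put on a log2 scale. Outlier-flagged spots were dropped and spots of a probe averaged. Probes had to exceed background clearly on 4 or more of 12 arrays, and each gene name was represented by its brightest such probe (22718 genes). On each array 58.1 to 67.0% of probes were well above background, no spot was saturated, and the number of arrays limits the precision.

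All 12 arrays were fitted with limma 3.58.1 (R 4.3.3, statmod 1.5.0), two-sided and without a block, with Benjamini-Hochberg adjustment over all genes and a threshold of 0.05. The fit was tested on simulated data. The members, lists and tests were chosen with earlier results of these data known. Named were, per complex and comparison, up to 4 members past the threshold with the largest change, or else the one with the smallest p; core subunits and isoform pairs; and up to 3 from each other list. The non-overlapping Atp5f1 was named after its values were seen. Of the members, 76 were matched by accession in RefSeq (GRCr8), 15 under another current symbol. Alternatives were another background correction or normalization, other filters, probes and fits, and leaving out arrays. Arrays of the same number correlated in their deviations from the group means by 0.13 to 0.34 for laser and control and by 0.16 to 0.34 for laser and bur, but by -0.05 to 0.28 for bur and control; the numbers come from the labels. Protein sequences were not used here. Some genes of the members and lists are not reported here by name.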

Additional observations from a re-analysis of the deposited data

Results flagged for a closer look

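Among 135 sets of 4 arrays examined, 7 held an array that stood apart from the others of its group, by Dixon's criterion on its gap to the nearest array. Chance gives about 1 in 20. The median level of complex II was 1.08 on control replicate 2, where the nearest control array had 1.32. Cox8b was -2.08 on bur replicate 1, the nearest being -5.19, and the skeletal muscle marker sum there was 8.53, beside at most 0.953 on the other bur arrays. Replicate 4 stood high for Atp5g2 in the laser group (5.32, nearest 4.85) and for Ndufs1 (0.65, nearest 0.31) and Uqcrfs1 (1.68, nearest 1.45) in the bur group. Ndufs8 was -1.58 on control replicate 3, the nearest being -1.99. Sdhd was 2.41 on laser replicate 3, the nearest being 2.58.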

How the results depend on the processing

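The count of members called moved with the processing, and so did the share of all genes that passed, while no call was made in laser against bur under any alternative run. In laser against control it was 6 (3 higher and 3 lower; 22.3% of all genes), 11 (7 and 4; 27.0%) with the deposited log2 values, 3 (1 and 2; 9.09%) with no filter on detection, 2 (0 and 2; 7.74%) when only the groups compared were fitted, 12 (9 and 3; 33.2%) with array weights and 2 (0 and 2; 6.09%) without replicate 1 of all 3 groups. In bur against control it was 7 (3 and 4; 26.2%), 11 (8 and 3; 34.9%) with normexp, 12 (8 and 4; 27.8%) with quantile normalization, 11 (7 and 4; 27.1%) with the percentile over detected probes, 14 (9 and 5; 30.2%) with the deposited values, 21 (17 and 4; 36.8%) with array weights and 1 (0 and 1; 4.89%) without replicate 1 of all 3 groups. Leaving out 1 array gave 2 to 7 in laser against control and 3 to 10 in bur against control, with 2 of 6 and 3 of 7 genes passing in all 12 fits; control replicate 1 gave 2 and 3, laser replicates 2 and 3 gave 2 each, and control replicate 4 gave 3. The medians over members ranged over -0.07 to 0.10, 0.05 to 0.17 and -0.14 to -0.01 in these fits; that of laser against control changed sign without control replicate 2 (-0.01) or laser replicate 4 (-0.07). Reversed were Ndufs4 in laser against control with normexp (-0.078) and Cox7c on its dimmer probe (0.49 and 0.40). Normexp shifted the median of all genes to -0.08, -0.24 and 0.13 in the 3 comparisons. With the replicate number as a block, the counts were 6, 7 and 0, and none of the subunit genes followed under the alternatives (38, 38 and 35) changed its call; genes of the other lists were not followed. The causes were not tested. The slide could not be fitted as a block beside the control comparisons, so that alternative was not run. Leaving out replicate 1 of all groups and the separate fit of probes were chosen after seeing the data. Of 25 members with several kept probes, the signs agreed for 13 in laser against control and 15 in bur against control.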
